A study of Mus musculus with 18 samples.

Results

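The 4 Notch receptors of the mouse and 4 proteins that work with them inside the cell were followed across skin layers and genotypes. The members were Notch1, Notch2, Notch3, Notch4, Rbpj, Maml1, Numb and Dtx4, taken as every probe set whose platform annotation gave one of these symbols. They comprised 19 probe sets of 45037 on the array, and 8 of 18193 genes. The rule itself reads only gene names, and the members were picked with earlier results of these data known.

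RNA was measured on 18 Affymetrix mouse arrays, with 3 arrays for each tissue (whole skin, dermis or epidermis) and genotype (K14NICDER transgenic or wild-type females), 6 groups in all. All mice were C57Bl6xCBA F1, were 7 weeks old when treatment began and received 4OHT (4-hydroxytamoxifen) for 14 days, the wild-type controls included. In K14NICDER mice the keratin 14 promoter, active in basal keratinocytes, drives a Notch intracellular domain joined to the ligand-binding part of the estrogen receptor, which 4OHT activates. The labels do not say how many animals gave a sample or whether the layers came from the same animals, so the p-values speak only of the spread among the arrays, which may be technical. Values are log2 MAS5 signal per probe set, where a difference of 1 is a 2-fold change. Levels of different probe sets are not comparable with each other, and each was compared only with itself across groups.

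Notch receptors are cell-surface proteins that are cut when a ligand on a neighbouring cell binds. The released intracellular domain enters the nucleus, joins the DNA-binding protein Rbpj and the co-activator Maml1, and turns on genes such as those of the Hes and Hey families. Numb, an endocytic adaptor, restrains the receptors at the membrane, and Dtx4 is a ubiquitin ligase of the Deltex family that acts on their trafficking. In skin, Notch1 acts in keratinocytes that leave the basal layer, Notch3 is typical of pericytes and vascular smooth muscle, and Notch4 of endothelium.

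Promoters are shown for the 3 members with a probe set that passed the test between the skin layers. Each is the 250 bases before the annotated start, 5′ to 3′ on the gene's strand, from RefSeq (GRCm38.p6), and capitals mark TGGGAA, the core of the Rbpj recognition sequence, or TTCCCA, its complement strand. The windows are chr2:26503823-26504072 (minus strand) for Notch1, chr17:34564045-34564294 (plus strand) for Notch4 and chr5:53590096-53590345 (plus strand) for the first of 2 starts of Rbpj.
Notch1: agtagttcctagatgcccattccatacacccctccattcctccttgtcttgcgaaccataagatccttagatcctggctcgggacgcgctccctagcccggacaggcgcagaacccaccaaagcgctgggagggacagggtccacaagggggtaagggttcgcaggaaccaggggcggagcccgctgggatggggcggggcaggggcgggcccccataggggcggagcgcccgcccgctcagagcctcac
Notch4: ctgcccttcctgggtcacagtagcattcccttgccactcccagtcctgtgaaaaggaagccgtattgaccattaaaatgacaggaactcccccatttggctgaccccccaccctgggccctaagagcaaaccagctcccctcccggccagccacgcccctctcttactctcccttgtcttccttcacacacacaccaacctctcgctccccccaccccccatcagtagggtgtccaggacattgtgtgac
Rbpj: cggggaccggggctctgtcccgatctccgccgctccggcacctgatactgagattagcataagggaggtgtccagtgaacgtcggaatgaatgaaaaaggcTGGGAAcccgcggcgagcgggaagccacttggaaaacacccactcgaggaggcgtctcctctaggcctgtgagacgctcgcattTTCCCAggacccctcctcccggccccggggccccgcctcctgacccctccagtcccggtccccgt
The core was present in 2 places in the Rbpj window, beginning 149 and 65 bases before the start, and these letters were not in the Notch1 and Notch4 windows. Among the 7 members with a promoter entry, Rbpj alone held it. Of 32851 such windows over all genes, 21.6% held it. The longer GTGGGAA, or TTCCCAC on the complement strand, was absent from the windows of all these members, Rbpj included. It was held by 5.42% of all windows.

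Of the 19 probe sets, 18 passed the filter on low values, a mean log2 signal over all arrays above 3.149. The remaining one, Notch4 1436901_at, had a mean of 1.22, fell below 0 on 3 arrays and was not tested. A total of 31526 probe sets entered each fit. Within-group spread was smaller in whole skin (median SD 0.227) than in epidermis (0.492) or dermis (0.532), so each comparison was fitted on its own tissues. The layers differed in their markers, and neither was free of the other's markers. Differentiated keratinocyte markers were lower in wild-type dermis in 6 of 8 genes, and fibroblast markers higher in 7 of 8. Of all probe sets 7.12% were lower there and 8.57% higher by the same test. Basal keratinocyte markers were lower in 1 of 7, with a summed linear signal of 11670 to 14210 in wild-type dermis and 15630 to 20020 in wild-type epidermis, so the dermal fraction held their RNA too. Fibroblast markers summed to 3861 to 9008 in wild-type and 8736 to 12420 in transgenic epidermis, against 16230 to 21060 and 13550 to 26690 in dermis, so the epidermal fraction held RNA of fibroblast markers. The source of this RNA in each fraction, and its part in the differences below, were not tested. Arrays of 1 group differed in how much of their linear signal lay in the brightest 1% of probe sets, from 16.4% to 33.8% over the 18 arrays. Wild-type epidermis replicates 1 and 3 (33.8% and 30.8%) and transgenic dermis replicate 3 (32.0%) were the highest.

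**Figure D1:**
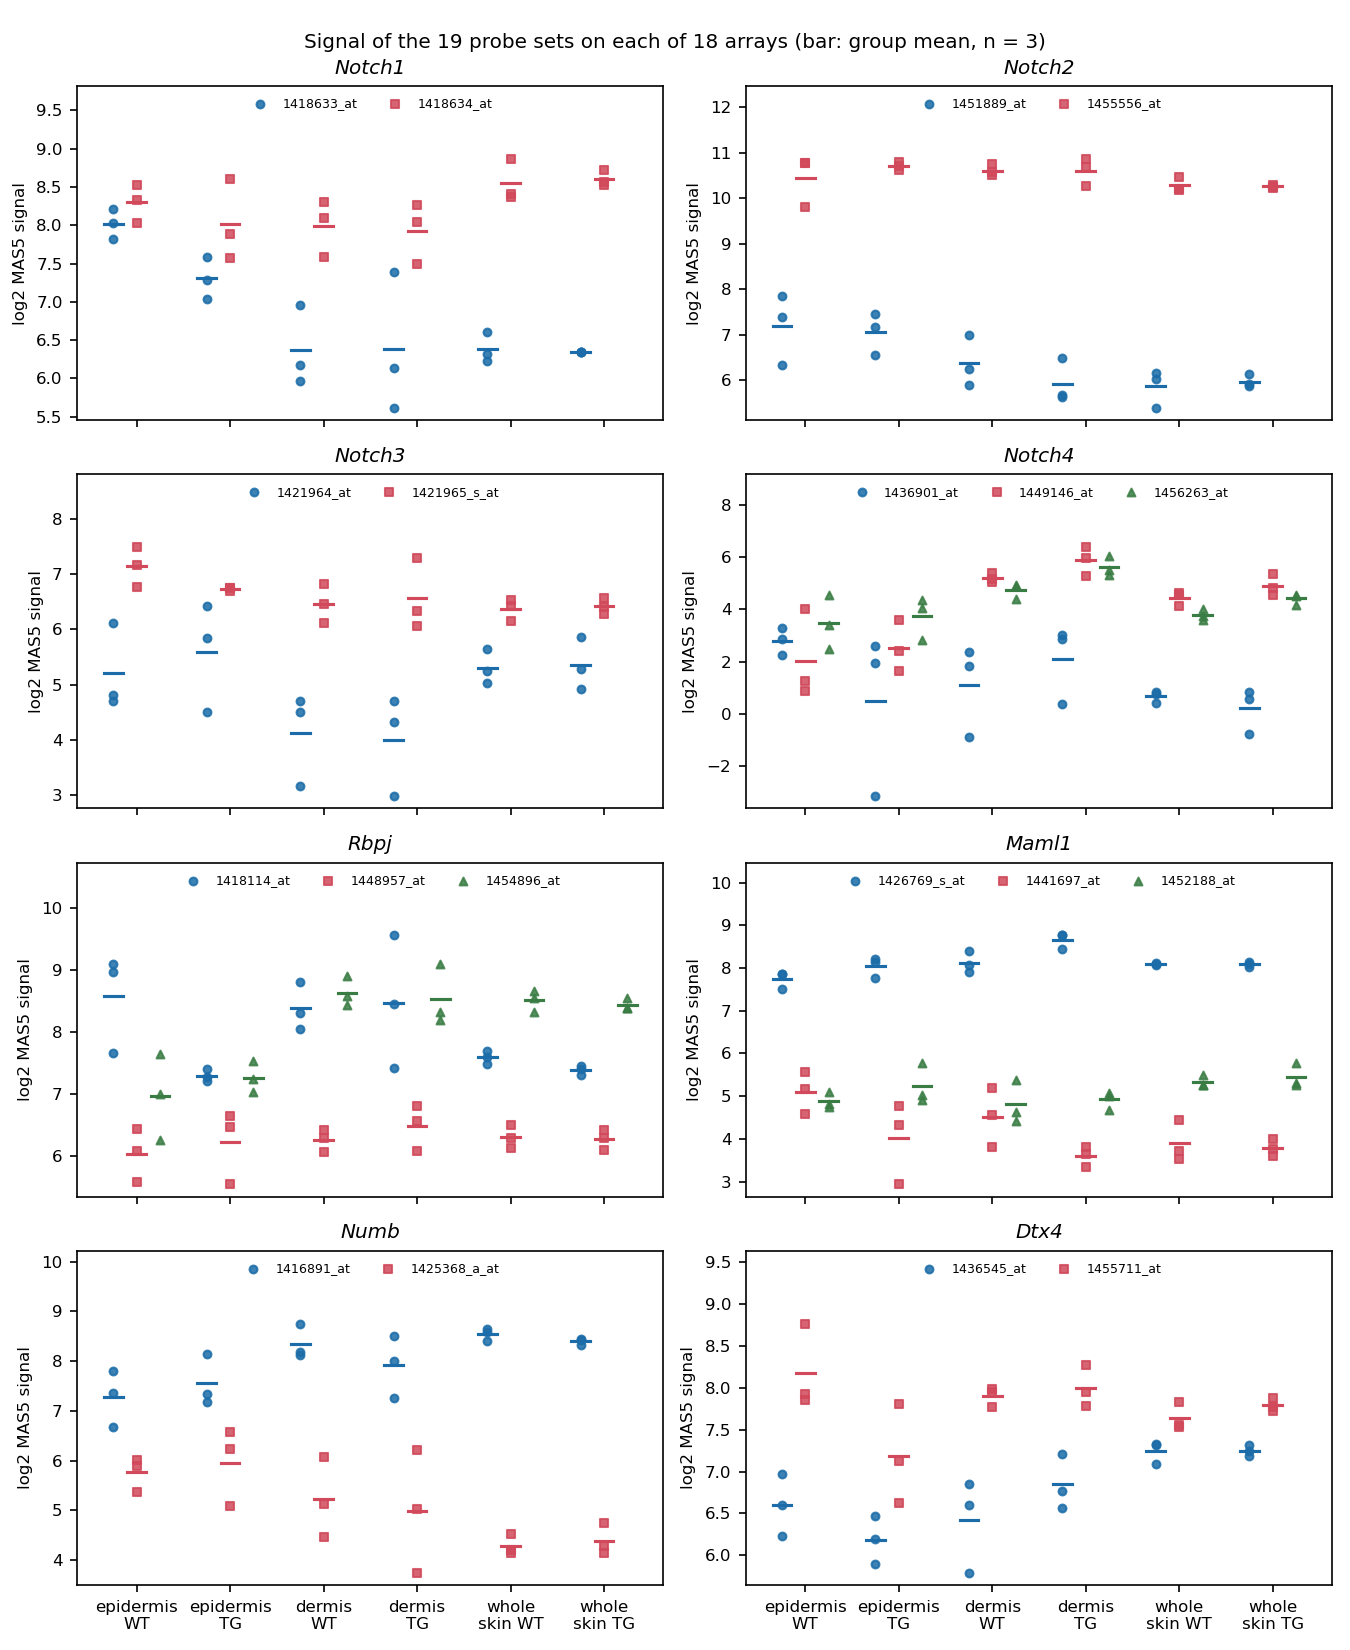
Log2 MAS5 signal (y axis) of every member probe set in the 6 groups (x axis; WT, wild type; TG, transgenic), with a point for each array and a bar at the mean of 3. Notch4 1449146_at lies between 5.06 and 6.40 on the dermis arrays and between 0.87 and 4.00 on the epidermis arrays, and the 2 probe sets of Numb run in opposite directions across tissues.

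Between skin layers some but not all probe sets of Notch1, Notch4 and Rbpj passed the test, and no member passed it between genotypes. In wild-type skin Rbpj was 3.17-fold higher in dermis by 1 of its 3 probe sets, Notch1 3.15-fold lower by 1 of 2, and Notch4 was higher in dermis by 1 of 2 tested, against an epidermal level below the filter's limit that gives no reliable fold. In the comparison of wild-type dermis with wild-type epidermis, 2 of 18 member probe sets were called higher and 1 lower, against 15.7% of all probe sets called (8.57% higher and 7.12% lower), so the members' share was close to that of all probe sets. An unadjusted p under 0.05 was reached by 5 of 18, against 31.8% of all. The layers did not overlap in 6 of 18, of which 4 were higher, against 39.9% of all (17.2% higher and 22.6% lower). In transgenic skin 3 were called higher and none lower in limma, against 18.8% of all probe sets (9.19% higher and 9.6% lower). An unadjusted p under 0.05 was reached by 9 of 18, against 32.2% of all, and the layers did not overlap in 7 of 18, of which 6 were higher, against 33.8% of all (16.2% higher and 17.5% lower).

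Notch1 1418633_at, a probe set of the receptor of suprabasal keratinocytes, read 8.21, 7.82 and 8.03 in wild-type epidermis and 5.97, 6.96 and 6.17 in wild-type dermis. The layers did not overlap, and wild-type dermis was lower by a log2 difference of -1.66 ± 0.41 (SE; limma adjusted p = 0.014). The call was lost without wild-type epidermis replicate 1 (-1.56, adjusted p = 0.0544), without wild-type dermis replicate 1 (-1.46, adjusted p = 0.0608) or 3 (-1.56, adjusted p = 0.0619), and with the share of signal in the brightest 1% as a covariate (-1.21, adjusted p = 0.0584). Over 15 alternatives the adjusted p ranged from 0.00235 to 0.0619. In transgenic skin the difference was -0.92 ± 0.41 (adjusted p = 0.131), with transgenic dermis replicate 3 at 7.39 inside the range of transgenic epidermis, 7.04 to 7.59. Without that array it was -1.43 (adjusted p = 0.0144), and with the same covariate -1.01 (adjusted p = 0.0442), so the covariate removed the wild-type call and gained a transgenic one. In whole skin the probe set lay between 6.22 and 6.61 on all 6 arrays, near the dermal level of 6.37 ± 0.52 (SD, n = 3). The other probe set, 1418634_at, gave -0.30 ± 0.32 between the wild-type layers (adjusted p = 0.537), with a 95% interval of -0.98 to 0.38. The order of the 1418633_at means was wild-type epidermis, transgenic epidermis, and then the other 4 groups between 6.35 and 6.38, whose differences were within their spread.

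Notch4 1449146_at, of the endothelial receptor, read 5.06, 5.17 and 5.42 in wild-type dermis and 4.00, 0.87 and 1.23 in wild-type epidermis. All dermis arrays stood above all epidermis arrays, and the epidermis mean of 2.04 ± 1.71 (SD, n = 3) lay below the filter's limit of 3.149, which the probe set passed through dermis and whole skin. The size of the difference therefore depends on how low values are treated: it was 3.18 ± 0.77 on the log2 scale (adjusted p = 0.0132), and the call was lost without wild-type epidermis replicate 3 (2.78, adjusted p = 0.0563) or wild-type dermis replicate 3 (3.08, adjusted p = 0.0585). With 16 added on the linear scale it became 1.28 and kept its call; adjusted p ranged from 0.00183 to 0.0585 over 14 alternatives. In transgenic skin the arrays read 6.0, 6.40 and 5.29 in dermis and 2.40, 3.58 and 1.62 in epidermis, again without overlap. The transgenic epidermis mean of 2.53 ± 0.99 was also below the filter's limit. The difference was 3.36 ± 0.77 (adjusted p = 0.00763). It passed in all 14 alternatives that kept this probe set, where its size ran from 1.76 to 3.89. The stricter filter on low values, and the fit with 1 probe set per gene, left the probe set out in both genotypes. Those settings therefore did not test its differences. Notch4 1456263_at was higher in transgenic dermis by 1.87 ± 0.58 (adjusted p = 0.0361), with arrays at 5.31, 6.04 and 5.51 against 2.83, 4.35 and 4.07. That call was lost in 6 of 15 alternatives: without transgenic epidermis replicate 1 (1.41, adjusted p = 0.138) or 3 (2.03, adjusted p = 0.065), without transgenic dermis replicate 2 (1.66, adjusted p = 0.121) or 3 (1.93, adjusted p = 0.0668), with no filter (adjusted p = 0.0504) and with a replicate block (adjusted p = 0.053). The probe set stood at 1.26 ± 0.58 in wild-type skin (adjusted p = 0.15).

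Endothelial markers were higher in the dermis arrays as well. Of 12 tested, 9 were called higher in wild-type dermis, against 8.57% of all probe sets. The median difference was 1.82 against -0.164 for all probe sets. Their summed linear signal ran from 779.7 to 1083 in wild-type dermis and from 180.1 to 291.1 in wild-type epidermis. Pecam1, an adhesion molecule of endothelium, was higher by 1.92 ± 0.56 (adjusted p = 0.0336). Kdr, a receptor for vascular growth factor, was also called higher (adjusted p = 0.00187), with a mean of 5.93 in wild-type dermis and of 1.65 in wild-type epidermis, below the filter's limit. In wild-type epidermis 4 of the 12 markers had a mean below that limit, so the median difference shares this dependence on low values. In bulk samples fewer cells of a type and less RNA per cell cannot be told apart, and the part of endothelial content in the Notch4 difference was not tested.

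Rbpj, the DNA-binding partner of all 4 receptors, was read by 3 probe sets that did not move together. Rbpj 1454896_at read 8.57, 8.43 and 8.89 in wild-type dermis and 6.26, 7.64 and 6.99 in wild-type epidermis. All dermis arrays were the higher, by 1.67 ± 0.35 (adjusted p = 0.00596), and the call held in all 16 alternatives run, with differences from 1.15 to 2.01 and adjusted p from 5.96e-04 to 0.0355. In transgenic skin it was higher in dermis by 1.27 ± 0.35 (adjusted p = 0.0206), where the arrays read 9.09, 8.18 and 8.32 against 7.52, 7.03 and 7.23. That call was lost without transgenic epidermis replicate 2 (1.15, adjusted p = 0.0789) or 3 (1.25, adjusted p = 0.0621) and without transgenic dermis replicate 1 (0.99, adjusted p = 0.0566). Whole skin lay at the dermal level, 8.50 ± 0.17 in wild-type and 8.43 ± 0.09 in transgenic mice (SD, n = 3). Rbpj 1448957_at, in contrast, gave 0.23 ± 0.36 between the wild-type layers (adjusted p = 0.686), and 1418114_at gave -0.19 ± 0.47 (adjusted p = 0.805). In transgenic skin 1418114_at stood at 1.18 ± 0.47 (adjusted p = 0.0962), and it passed without transgenic dermis replicate 1 (1.71, adjusted p = 0.00982) and with the share of signal in the brightest 1% as a covariate (1.0, adjusted p = 0.00512).

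**Figure D2:**
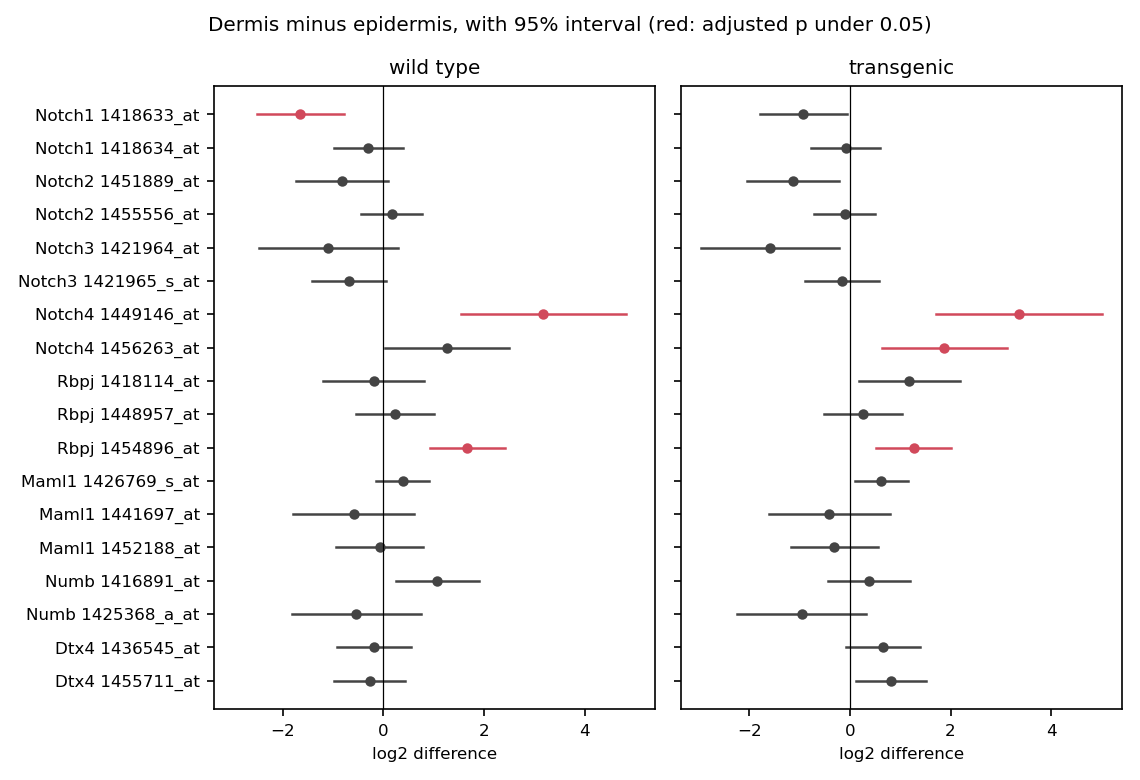
Log2 difference, dermis minus epidermis (x axis), of the 18 tested member probe sets (y axis) in wild-type and in transgenic skin, with points at the limma estimate, lines over the 95% interval and red for adjusted p under 0.05. Red marks Notch1 1418633_at (wild type), Notch4 1449146_at and Rbpj 1454896_at (both) and Notch4 1456263_at (transgenic).

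The other members were not called between layers. Notch2 1455556_at differed by 0.16 ± 0.28 in wild-type and -0.10 ± 0.28 in transgenic skin, with intervals of -0.45 to 0.77 and -0.71 to 0.50, inside a 2-fold change either way. Its arrays lay between 9.80 and 10.87 over all 3 tissues. Notch2 1451889_at stood at -0.82 ± 0.43 in wild-type (adjusted p = 0.204) and -1.14 ± 0.43 in transgenic skin (adjusted p = 0.0806), and the latter passed with the share of signal in the brightest 1% as a covariate (-1.21, adjusted p = 0.0372). Notch3 had values below 0 by both probe sets without passing: -1.10 ± 0.64 (adjusted p = 0.256) for 1421964_at and -0.68 ± 0.35 (adjusted p = 0.189) for 1421965_s_at in wild-type skin. The markers of mural cells (pericytes and vascular smooth muscle) went the other way. Of 12, 10 were called higher in wild-type dermis, against 8.57% of all probe sets, with a median difference of 3.19. Their summed signal ran from 4683 to 6458 in wild-type dermis and from 391.0 to 699.6 in wild-type epidermis. Numb 1416891_at stood at 1.07 ± 0.38 in wild-type dermis over epidermis (adjusted p = 0.0701; 1.33 and adjusted p = 0.0388 without wild-type epidermis replicate 2) and Numb 1425368_a_at at -0.54 ± 0.60 (adjusted p = 0.557). Maml1 1426769_s_at stood at 0.38 ± 0.25 (adjusted p = 0.299) and the 2 probe sets of Dtx4 at -0.18 and -0.28. In transgenic skin Dtx4 1455711_at stood at 0.82 ± 0.33 (adjusted p = 0.0997) and passed without transgenic epidermis replicate 2 (1.12, adjusted p = 0.0432). Maml1 1452188_at lay between 4.43 and 5.78 and Rbpj 1448957_at between 5.54 and 6.80 on all 18 arrays, with no call in any comparison.

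Between genotypes the members were compared to see whether forced Notch signalling in keratinocytes was accompanied by altered RNA of the receptors and their partners. In epidermis 0 of 18 probe sets were called in limma and 3 had an unadjusted p under 0.05, against 1.49% of all probe sets called (0.923% higher and 0.568% lower) and 17.9% with an unadjusted p under 0.05. The transgenic arrays did not overlap the wild-type ones in 4 of 18, all lower, against 23% of all probe sets (8.27% higher and 14.7% lower). The median difference of the members was 0.195, and that of all 31526 probe sets was -0.198.

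Cell type markers moved in the same comparison. Of 7 basal keratinocyte markers 2 fell, among them Krt15, a basal keratin, by 3.66 ± 0.36 (limma adjusted p = 8.135e-04). Of 8 differentiated keratinocyte markers 2 rose, among them Flg, a protein of the cornified layer, by 2.90 ± 0.22 (adjusted p = 4.554e-04). Of all probe sets 0.923% were called higher and 0.568% lower. The differentiated markers did not all move 1 way: 5 were higher and 2 lower at an unadjusted p under 0.05 in limma. Their summed linear signal overlapped between genotypes, at 20450 to 30780 in wild-type and 23670 to 29330 in transgenic epidermis. Of 12 mural markers 2 rose, and of 8 fibroblast markers none was called and 4 were higher at an unadjusted p under 0.05 in limma. Their part in the members' values was not tested.

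The 3 smallest p-values of the members in epidermis belonged to Rbpj, Dtx4 and Notch1. Rbpj 1418114_at read 9.09, 7.66 and 8.97 on wild-type and 7.27, 7.21 and 7.39 on transgenic arrays, a difference of -1.28 ± 0.36 (adjusted p = 0.115). Transgenic arrays were all lower, and wild-type replicate 2 lay nearest to them. Without that replicate the value was -1.74 (adjusted p = 0.00407 in limma), but calls over all probe sets also rose, from 470 to 2396. The wild-type arrays then left were those with 33.8% and 30.8% of their signal in the brightest 1% of probe sets. Rbpj 1454896_at stood at 0.30 ± 0.36 and 1448957_at at 0.19 ± 0.39, so the probe sets of this gene gave values of opposite sign. Dtx4 1455711_at read 7.85, 7.92 and 8.77 on wild-type and 6.62, 7.81 and 7.13 on transgenic arrays, without overlap, at -0.99 ± 0.36 (adjusted p = 0.193). It passed only when all 18 arrays shared an estimate of the spread (adjusted p = 0.0433 in that limma fit), and the other Dtx4 probe set stood at -0.42 ± 0.33 (adjusted p = 0.509). Notch1 1418633_at read 7.29, 7.04 and 7.59 on transgenic arrays, all below the wild-type range of 7.82 to 8.21, at -0.72 ± 0.27 (adjusted p = 0.205), and Notch1 1418634_at stood at -0.28 ± 0.30 (adjusted p = 0.628). The annotation used does not place these probe sets within the Notch1 transcript, so neither is a check of the transgene. Notch3 1421965_s_at was the fourth without overlap, at -0.42 ± 0.29 (adjusted p = 0.456). Maml1 1441697_at, with overlapping groups, stood at -1.09 ± 0.57 (adjusted p = 0.332).

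The Rbpj values went along with the concentration of signal on the arrays. The 2 wild-type arrays with 33.8% and 30.8% of their signal in the brightest 1% of probe sets had the highest Rbpj 1418114_at, 9.09 and 8.97, and the lowest Rbpj 1454896_at, 6.26 and 6.99. The other wild-type epidermis array (22.9%) and the transgenic ones (22.6% to 26.1%) lay between 7.21 and 7.66 and between 7.03 and 7.64. With that share as a covariate, added after seeing the data, the difference of Rbpj 1418114_at was -0.65 (adjusted p = 0.519 in limma). That of 1454896_at turned from 0.30 to -0.33. The 2 highest shares in epidermis were both on wild-type arrays, so share and genotype cannot be told apart there. The part of each in the Rbpj values was not tested. In dermis, transgenic replicate 1 had the lowest share, 16.7%, with the lowest 1418114_at, 7.41, and the highest 1454896_at, 9.09. Transgenic dermis replicate 3, with the highest share there, 32.0%, had the highest 1418114_at, 9.55. Its 1454896_at, 8.32, was not the lowest in dermis, which was 8.18 on transgenic replicate 2 (share 26.8%). Numb showed the same opposition between probe sets: transgenic dermis replicate 3 had the lowest dermal 1416891_at, 7.27, and the highest dermal 1425368_a_at, 6.21. In epidermis the Numb values did not follow the share in this way. There 1425368_a_at was highest on transgenic replicates 3 (6.57, share 22.6%) and 2 (6.24, share 26.1%). Wild-type replicates 1 and 3, with the highest shares, read 6.02 and 5.90. In whole skin, where shares ran only from 16.4% to 19.1%, Rbpj 1418114_at stayed between 7.31 and 7.69 and 1454896_at between 8.31 and 8.65.

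**Figure D3:**
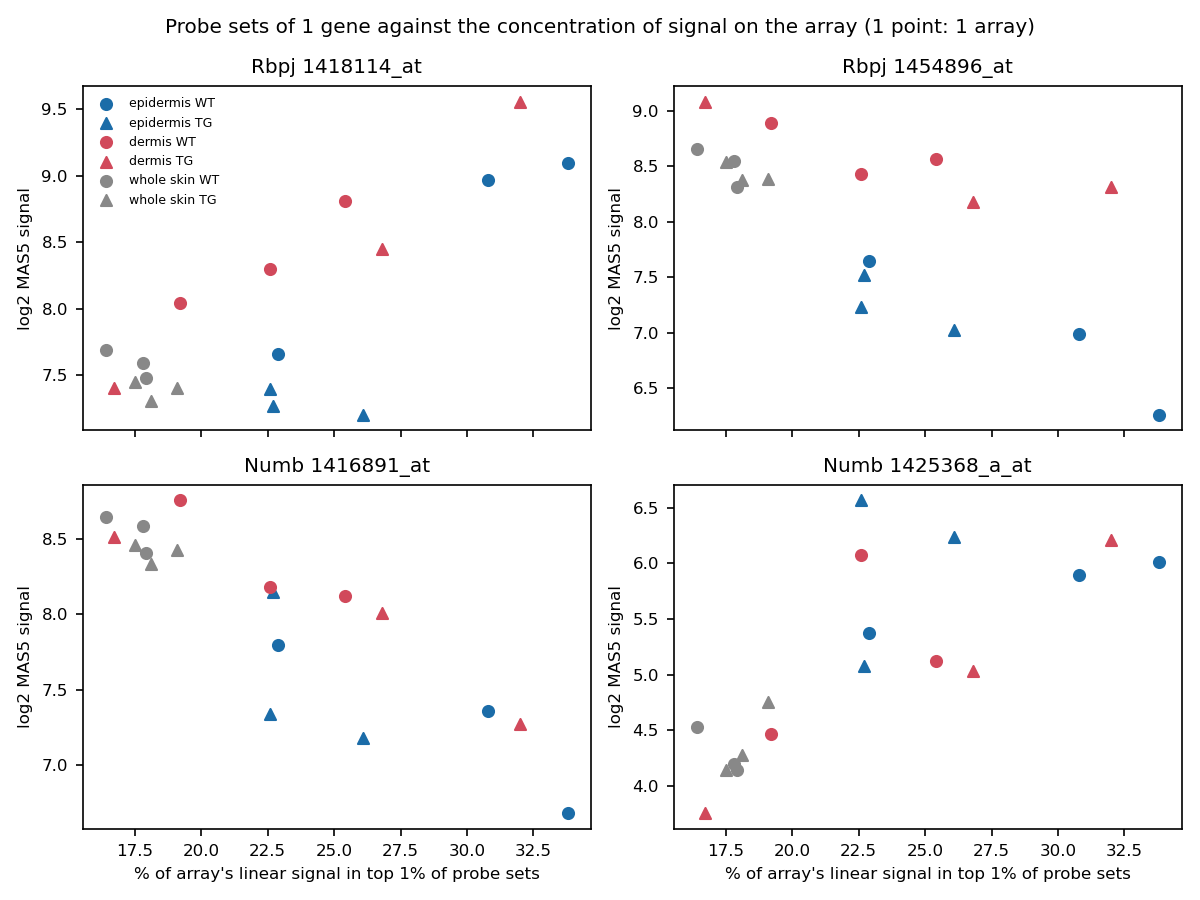
Log2 MAS5 signal (y axis) of 2 probe sets each of Rbpj and Numb against the percent of an array's linear signal held by its brightest 1% of probe sets (x axis), with a point for each of 18 arrays; colour gives the tissue and shape the genotype. The 2 pairs were picked as the most opposed pairs of 1 gene in the separated layers (Pearson r in epidermis and dermis -0.719 and -0.735 for Rbpj, -0.728 and -0.757 for Numb). Other pairs moved together, such as Notch4 1449146_at and 1456263_at (0.678 and 0.682). Within the separated layers Rbpj 1418114_at is highest (9.55, 9.09 and 8.97) on the 3 arrays with the highest share, where Numb 1416891_at reads 7.27, 6.68 and 7.36.

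In dermis 0 of 18 member probe sets were called, and none had an unadjusted p under 0.05 in limma, against 0.0222% of all probe sets called and 3.91% at that unadjusted p. The groups did not overlap in 3 of 18, of which 2 were higher, against 9.13% of all probe sets (3.09% higher and 6.04% lower). Notch4 1456263_at read 4.95, 4.91 and 4.39 on wild-type and 5.31, 6.04 and 5.51 on transgenic arrays. Every transgenic array was higher, at 0.87 ± 0.40 (adjusted p = 0.99). Notch4 1449146_at stood at 0.68 ± 0.40 with overlapping groups. The remaining pair without overlap were of Maml1 and disagreed: 1426769_s_at stood at 0.53 ± 0.27 and 1441697_at at -0.91 ± 0.55 (adjusted p = 0.99 for both).

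Whole skin gave the most precise comparison. None of the 18 were called in limma, 1 had an unadjusted p under 0.05 (15.5% of all probe sets did), and 1.56% of all probe sets were called (0.91% higher and 0.653% lower). The groups did not overlap in 2 of 18, 1 in each direction, against 21.8% of all probe sets (9.66% higher and 12.1% lower). Rbpj 1418114_at was the lower one, at -0.20 ± 0.11 (adjusted p = 0.445). The 95% interval lay inside a 2-fold change either way for 16 of 18 member probe sets, against 3 in epidermis and 6 in dermis. The exceptions were those of Notch4. Notch4 1456263_at read 4.02, 3.58 and 3.76 on wild-type and 4.19, 4.53 and 4.56 on transgenic arrays, all higher, at 0.64 ± 0.25 (interval 0.07 to 1.21, adjusted p = 0.263). Notch4 1449146_at stood at 0.47 ± 0.26 (adjusted p = 0.418). In epidermis both stood within 1 SE of 0 (0.50 ± 1.11 and 0.26 ± 0.73), with the sign turning in 2 of 14 and 2 of 15 alternatives (down to -0.08 and -0.24) and 1449146_at below the filter's limit in both groups. In whole skin the median of the endothelial list was -0.036 with 1 of 12 called higher (Flt1, a receptor of vascular growth factor, 1.03 ± 0.18, adjusted p = 0.0291), in dermis -0.117 with 0 called and 0 at an unadjusted p under 0.05 in limma, and in epidermis -0.085 with 1 of 12 called higher (Flt1 again, 2.18 ± 0.38, adjusted p = 0.0191). For Notch1 1418634_at the whole skin interval was -0.26 to 0.37, for Notch2 1455556_at -0.23 to 0.17, for Notch3 1421965_s_at -0.30 to 0.39 and for Rbpj 1454896_at -0.33 to 0.19.

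**Figure D4:**
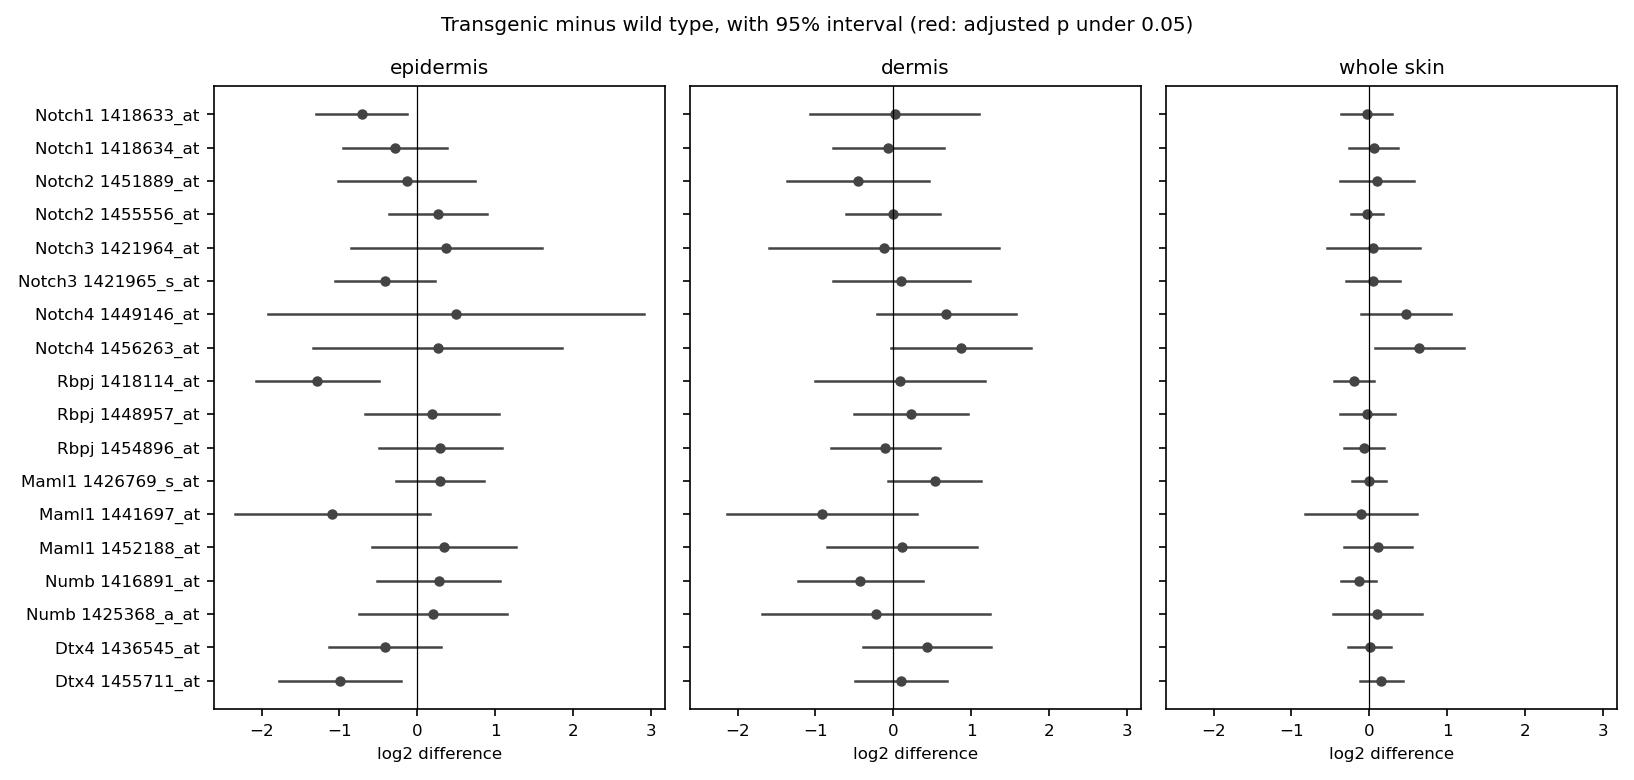
Log2 difference, transgenic minus wild type (x axis, the same in each panel), of the 18 tested member probe sets (y axis) in epidermis, dermis and whole skin, with points at the limma estimate and lines over the 95% interval. No point is red, which would mark adjusted p under 0.05, and the whole skin intervals are the shortest (median half-width 0.338, against 0.789 in epidermis and 0.885 in dermis).

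The genotype effect in dermis was also set against that in epidermis. None of the 18 differed in limma, 1 had an unadjusted p under 0.05, and 0% of all probe sets were called, with 7.4% at that unadjusted p. The largest values were those of Rbpj 1418114_at (1.37 ± 0.66) and Dtx4 1455711_at (1.09 ± 0.46), both with adjusted p = 0.668. The intervals of the members had a median half-width of 1.19, so a difference of 2-fold was not detectable for most of them.

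Other genes of the pathway were counted from lists, each gene by 1 probe set. Of the enzymes that cut or glycosylate the receptor, 0 of 10 tested were called between genotypes in any of the 3 tissues in limma, and 0 had an unadjusted p under 0.05. The same held for calls among 6 co-activators, which had 1 lower at an unadjusted p under 0.05 in whole skin, and 10 co-repressors, which had 1 higher and 1 lower in epidermis and 1 lower in dermis. With so few of all probe sets called, lists of this length without a call are not set apart. Among 13 ubiquitin ligases and trafficking proteins, Neurl1b, a ligase that acts on ligands, rose in whole skin by 0.99 ± 0.13 (adjusted p = 0.00693). Its whole skin arrays ran from 8.0 to 8.34 in wild-type and from 8.95 to 9.30 in transgenic mice. Of 9 ligands and fringes, Dll1, a ligand, fell in epidermis by 2.42 ± 0.27 (adjusted p = 0.00161) and in whole skin by 1.12 ± 0.11 (adjusted p = 0.00229), and Lfng, which glycosylates receptors, fell in epidermis by 1.80 ± 0.37 (adjusted p = 0.0383). Of 5 effectors, Heyl, a transcriptional repressor, rose in whole skin by 2.40 ± 0.14 (adjusted p = 1.24e-04), from 5.23 to 5.50 on the wild-type arrays to 7.66 to 7.84 on the transgenic ones. In epidermis 0 of the 5 were called (median difference -0.343), and in dermis 0 (median 0.258). At an unadjusted p under 0.05 in limma 1 was higher in epidermis and 2 in dermis, and 0 were lower. Heyl in dermis ran from 3.76 to 5.49 in wild-type and from 7.15 to 8.27 in transgenic mice, without a call. 

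Between layers, the co-activator Snw1 was higher in dermis in wild-type (0.94 ± 0.22, adjusted p = 0.0111) and transgenic skin (0.77 ± 0.22, adjusted p = 0.0254), as Rbpj 1454896_at was. Kat2b, an acetyltransferase, was higher in wild-type dermis by 0.89 ± 0.28 (adjusted p = 0.0449), making 2 of 6 co-activators. Of 10 co-repressors in wild-type skin, Tle1 was higher in dermis by 1.93 ± 0.55 (adjusted p = 0.0306) and Hdac2 lower (-0.85 ± 0.27, adjusted p = 0.0435). In transgenic skin 0 of the 10 were called higher and 2 lower. Of 5 effectors, 1 was called higher in dermis and 1 lower in wild-type skin, and 3 higher and 1 lower in transgenic skin. Over all probe sets 8.57% were called higher in dermis and 7.12% lower in wild-type skin, and 9.19% and 9.6% in transgenic skin. Dtx2, of the same ligase family as Dtx4, was lower in dermis in wild-type (-0.82 ± 0.26, adjusted p = 0.046) and transgenic skin (-1.05 ± 0.26, adjusted p = 0.012). Psenen, a subunit of the gamma-secretase that releases the intracellular domain, was lower in transgenic dermis (-1.39 ± 0.41, adjusted p = 0.0301) and was the only call among 10 processing genes between layers in either genotype.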

How the data were processed

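The authors deposited a table of log2 values for 18 arrays, made with MAS5 per the submitters' processing notes, which name no version or setting. The log2 scale was read from the numbers, which ran from -7.52 to 14.42 and gave a trimmed linear mean of 98.92 to 99.52 on every array. Of 45037 probe sets, 34945 had 1 symbol, 932 several and 9160 none. Probe sets with a mean above the 30th percentile were kept. Each comparison was fitted with limma 3.58.1 (R 4.3.3; 1 mean per group, variance trend) on the arrays of its own tissues, and p-values were adjusted by Benjamini-Hochberg over all 31526 probe sets, at a threshold of 0.05. Lists used each gene's probe set with the highest mean. All member probe sets are named. In lists, called genes and up to 4 others could be named; the genes most like a called member were to be named, but no member was called between genotypes. Members and lists were chosen with earlier results of these data known. The number of arrays limits precision. On simulated data (5 rounds of 200 log2 changes of 2 among 31526 probe sets) the fit recovered 41.7% in epidermis, 33.8% in dermis, 86% in whole skin and 52.5% between wild-type layers. Of calls 5.66%, 9.63%, 7.53% and 8.38% were false. For the difference between layers in genotype effect it recovered 12.3%, with 7.52% of calls false. Far more than 200 probe sets were called between layers (4947 in wild-type skin), so the simulated recovery there does not describe those comparisons. Alternatives covered the arrays in the fit, filter, probe sets per gene, normalization, low values, variance prior, replicate block, single arrays left out and, added after seeing the data, the share of signal in the brightest 1% of probe sets as a covariate.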

Additional observations from a re-analysis of the deposited data

How the results depend on the processing

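Over the 3 genotype comparisons, member probe sets kept direction and side of the threshold in 747 of 825 alternatives; 2 gained a call, as given, and 76 of uncalled values changed sign. Counts over all probe sets moved more. With all 18 arrays in the fit they became 1811 (epidermis, 470 as reported), 56 (dermis, 7), 34 (whole skin, 493), 45 (difference between layers in genotype effect, 0), 8488 (wild-type layers, 4947) and 8979 (transgenic layers, 5921). Between wild-type layers Numb 1416891_at then passed (1.07, adjusted p = 0.0216), and between transgenic layers 5 more member probe sets did. Without the variance trend the first 4 were 51, 2, 58 and 1, and with the added covariate 233, 11, 65 and 2. A filter at the 50th percentile gave 4 in dermis. For the difference in genotype effect, no filter gave 7, 1 probe set per gene 3 and 16 added before log2 14; 1 probe set per gene gave 2559 and 3054 between layers. Leaving out 1 array gave 88 to 2396 in epidermis (every array moved it by over 1.5 times; 2396 without wild-type replicate 2, 88 without transgenic replicate 1), 1 to 36 in dermis (1 without replicate 2 of either genotype, 36 without transgenic replicate 1), 138 to 509 in whole skin (138 without wild-type replicate 1), 0 to 45 for the difference (45 without transgenic dermis replicate 1), 2303 to 5766 for wild-type layers (2303 without dermis replicate 3) and 3836 to 7357 for transgenic layers (3836 without epidermis replicate 3). The median of all probe sets in epidermis was -0.198 as deposited, 0.001 after quantile normalization and -0.084 at a common 75th percentile.

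Deviations of same-numbered arrays correlated at r = -0.329 to 0.029 between genotypes in epidermis, -0.299 to -0.051 in dermis, -0.139 to 0.073 in whole skin and -0.042 to 0.049 between wild-type layers. Between transgenic layers they were 0.4, 0.161 and 0.003, against -0.342 to 0.212 for unlike numbers. Since not every pair exceeded 0.1 in any comparison, the numbers were not taken as pairs. With the replicate block the counts were 192 in epidermis and 1 for the difference in genotype effect; Notch4 1456263_at between transgenic layers lost its call (1.87, adjusted p = 0.053), and the block changed no other member's call. The cause of these changes was not tested.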
